A study of Homo sapiens with 12 samples.

Results

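The 10 imprinted genes described here are H19, IGF2, KCNQ1OT1, CDKN1C, MEG3, DLK1, PEG3, PEG10, SNRPN and MEST, out of 38340 protein-coding and long noncoding RNA (lncRNA) genes in the RefSeq table for GRCh38. Every accessible site whose summit lay inside a gene of the list or within 20 kb of it was taken, which gave 40 summits in 36 intervals, out of 188019 summits in the whole peak list. Accessibility had been measured by ATAC-seq, which marks open chromatin by the insertion of sequencing adapters, in HT1080, an established human fibrosarcoma line. All cells had migrated for 48 h in type I collagen from rat tail. Its concentration in mg/mL was 0.3 in the low, 1 in the medium and 1.7 in the high group, each with 4 libraries, and all had received 20 µM GM6001, an inhibitor of matrix metalloproteinases. The 12 libraries share 1 peak list with no value per library or concentration, so no comparison between collagen concentrations was made, the values have no replicates, and the depth per library is unknown.

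An imprinted gene is expressed from the maternal or the paternal copy alone. The choice is kept by an imprinting control region, a stretch of DNA that carries methylation on the copy from either the mother or the father and is called a differentially methylated region (DMR). Several of these regions lie over the start of a noncoding RNA or a paternally expressed gene, and others lie between genes. At the region of H19 and IGF2 the insulator protein CTCF binds the unmethylated copy. The zinc finger protein ZFP57 is known to protect methylation at many imprinting control regions. ATAC-seq fragments in a pooled list carry no parent of origin, so open chromatin on 1 copy and on both copies cannot be told apart here.

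For 8 control regions a window was set from known positions relative to a RefSeq start site, with negative distances upstream. IC1, which governs H19 and IGF2, was placed 2000 to 7000 bp upstream of MIR675, a microRNA gene inside H19. KvDMR1, which governs CDKN1C, was placed within 1500 bp of the KCNQ1OT1 start. The IG-DMR lies between DLK1 and MEG3, 14000 to 17000 bp upstream of MEG3, and the MEG3-DMR spans the MEG3 start. The other 4 windows lay at the starts of PEG3, PEG10, SNURF (the gene that shares the main SNRPN promoter) and MESTIT1 (an antisense RNA of MEST).

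Promoter sequences were matched in RefSeq (GRCh38.p14) for 4 members, H19, MEG3, SNRPN and MEST. Those shown are the starts that the results turn on, 250 bases before to 50 after each start, and capitals mark matches on either strand to TGCCGC, the hexamer of ZFP57, and to AAGATGGC, a YY1 motif. TGCCGC occurred in 16.7% of 34943 RefSeq promoter windows of this length and AAGATGGC in 2.89%. The overlapping pair in the MEST window is a palindrome of TGCCGC on both strands. The first sequence below holds a summit at the SNURF control region, the next lies beside the other summit of that region, and the third is an upstream SNRPN start outside it. The MEST sequence holds the weak summit of its control region. The MEG3 sequence had no summit, and the H19 sequence lies between the paired IC1 summits.
SNURF and SNRPN, chr15:24954737-24955036, plus strand: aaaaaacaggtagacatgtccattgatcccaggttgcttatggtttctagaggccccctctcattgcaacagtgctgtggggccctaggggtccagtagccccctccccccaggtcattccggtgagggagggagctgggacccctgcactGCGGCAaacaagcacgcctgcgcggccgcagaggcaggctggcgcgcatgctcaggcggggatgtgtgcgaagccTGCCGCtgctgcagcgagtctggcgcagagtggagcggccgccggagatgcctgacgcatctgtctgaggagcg
SNRPN internal start, chr15:24956050-24956349, plus strand: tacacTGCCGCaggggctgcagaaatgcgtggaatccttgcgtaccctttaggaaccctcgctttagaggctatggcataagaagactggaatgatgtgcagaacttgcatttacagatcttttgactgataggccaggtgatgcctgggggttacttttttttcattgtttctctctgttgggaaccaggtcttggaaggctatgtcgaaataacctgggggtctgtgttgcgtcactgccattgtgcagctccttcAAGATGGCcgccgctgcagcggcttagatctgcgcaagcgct
SNRPN upstream start, chr15:24862722-24863021, plus strand: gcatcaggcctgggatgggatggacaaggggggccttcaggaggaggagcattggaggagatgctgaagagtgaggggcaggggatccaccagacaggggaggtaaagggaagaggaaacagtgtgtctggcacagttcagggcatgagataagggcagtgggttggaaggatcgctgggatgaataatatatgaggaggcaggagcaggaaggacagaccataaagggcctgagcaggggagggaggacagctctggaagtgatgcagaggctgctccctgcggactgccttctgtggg
MEST, chr7:130491835-130492134, plus strand: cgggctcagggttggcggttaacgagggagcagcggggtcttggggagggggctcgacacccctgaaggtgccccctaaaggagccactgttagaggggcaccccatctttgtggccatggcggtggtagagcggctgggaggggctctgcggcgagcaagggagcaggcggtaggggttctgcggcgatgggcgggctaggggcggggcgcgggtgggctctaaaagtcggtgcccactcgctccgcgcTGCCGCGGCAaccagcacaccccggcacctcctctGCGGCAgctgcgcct
MEG3, chr14:100825858-100826157, plus strand: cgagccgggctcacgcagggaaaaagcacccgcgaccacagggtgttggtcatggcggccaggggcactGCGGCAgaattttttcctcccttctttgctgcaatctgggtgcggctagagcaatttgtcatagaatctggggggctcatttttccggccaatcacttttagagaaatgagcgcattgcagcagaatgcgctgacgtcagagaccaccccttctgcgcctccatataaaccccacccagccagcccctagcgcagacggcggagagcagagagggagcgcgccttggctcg
H19, chr11:2001217-2001516, minus strand: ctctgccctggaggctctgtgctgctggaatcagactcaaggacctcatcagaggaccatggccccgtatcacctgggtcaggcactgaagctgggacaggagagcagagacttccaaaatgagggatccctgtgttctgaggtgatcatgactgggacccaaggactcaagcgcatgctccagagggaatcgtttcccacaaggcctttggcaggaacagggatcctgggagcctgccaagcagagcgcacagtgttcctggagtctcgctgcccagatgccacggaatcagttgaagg

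Each summit is described by its enrichment, which is the authors' fold over the peak caller's local background, and by its pileup. The pileup is the peak caller's count at the summit, solved from the enrichment and p-value. It is given in fragments, although the peak caller's settings, and so the unit counted, are not stated. In brackets after an enrichment stands a 95% exact Poisson interval, which takes the counts as independent. It covers counting error of the fragments only, not the choice of the summit as a local maximum. The median enrichment of the 40 summits was 2.67 (quartiles 1.98 and 4.60), beside 4.27 (2.63 and 6.57) for all 188019 summits, and 30 of the 40 lay below that list median. Their median pileup was 68 fragments, beside 101 in the whole list. An enrichment over 5 was reached by 10 of the 40, beside 40.8% of all summits. Most summits thus did not exceed 5, both at these loci and in the whole list. All intervals at these loci were shorter than 10 kb. Over the 112569 summits in intervals of at most 10 kb, the median enrichment was 3.90 (2.18 and 7.67) and the median pileup 107.

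**Figure D1:**
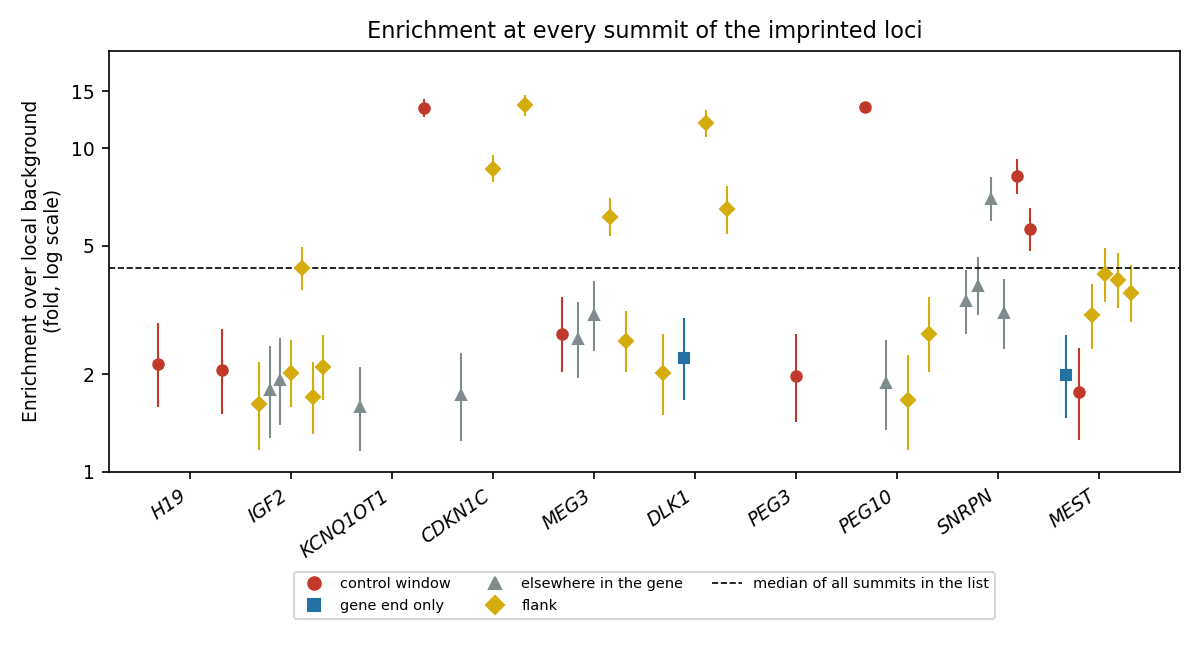
Enrichment (fold over local background, log axis) at each of the 40 summits, grouped by imprinted locus and in genome order within a locus, with bars for the 95% exact Poisson interval of the pileup. The marker shows whether a summit lay in a control window, only at a gene end, elsewhere in the gene or in the 20 kb flank. The 10 summits over 5 lay at KCNQ1OT1, CDKN1C, MEG3, DLK1, PEG10 and SNRPN.

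Control regions were open to very different degrees. Of the 8 windows, 7 held a summit and the MEG3-DMR held 0. No share was computed for windows of these widths at other genes, so the count of 7 has no background. In 3 windows, those of PEG10, KvDMR1 and SNURF, the highest enrichment lay between 8.18 and 13.4. In the other 4, the IG-DMR, IC1, PEG3 and MEST windows, it lay between 1.76 and 2.67. The intervals of these 4 did not reach those of the first 3.

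PEG10, a retrotransposon-derived gene needed in the placenta, spans 94656325 to 94669695 on chromosome 7 on the plus strand. The summit in its control window lay in the gene, 1891 bp from the start, in an 865 bp interval. Its enrichment was 13.42 (13.03 to 13.82), on 4452 fragments. Counted by pileup it stood at rank 653 of the 188019 summits and above 99.7% of them, whereas by enrichment it was above 95.6%. The local background there was 330.8 fragments, 16.3 times the lowest background in the list. The 3 other PEG10 summits had enrichments of 1.66 to 2.67 and pileups of 35 to 56.

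KCNQ1OT1 is a long noncoding RNA transcribed antisense from within KCNQ1, and it is known to silence CDKN1C and its neighbours on the paternal copy. The gene spans 2608328 to 2699994 on chromosome 11 on the minus strand. Its control window held a summit 157 bp upstream of the start, with an enrichment of 13.3 (12.5 to 14.2) on 898 fragments over a background of 66.4. The only other summit in the 91.7 kb gene and its flanks lay 11401 bp into the gene, with an enrichment of 1.58 at a pileup of 44. Among the RefSeq 5′ ends of the 10 genes, the KCNQ1OT1 start alone had a summit of enrichment over 5 within 1000 bp.

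SNRPN encodes a splicing protein of the Prader-Willi region and spans 24823637 to 24978723 on chromosome 15 on the plus strand. RefSeq places its 5′ end far upstream of the SNURF start, and the nearest summit to that 5′ end was 29611 bp away. The SNURF control window held a pair of summits. The first lay 23 bp downstream of the SNURF start, with an enrichment of 8.18 (7.22 to 9.23) at a pileup of 260, inside the SNURF sequence printed above. The other lay 1581 bp downstream of the SNURF start, with an enrichment of 5.62 (4.82 to 6.51) at a pileup of 175, and 268 bp from the internal start whose sequence holds the AAGATGGC match. These intervals did not overlap.

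SNRPN also had 4 summits upstream of the control window, all inside the gene. The strongest lay 11 bp from the upstream start printed above, with an enrichment of 6.98 (5.95 to 8.14) at a pileup of 162. That promoter window held 2 CpG dinucleotides and no match to TGCCGC, whereas the SNURF window held 18 CpG and 2 matches. The median promoter in RefSeq held 14 CpG. The intervals of the summits at the upstream and SNURF starts overlapped, so counting error did not separate the enrichments at a CpG-poor and a CpG-rich start of this gene. The 3 remaining upstream summits had enrichments of 3.10 to 3.76.

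**Figure D2:**
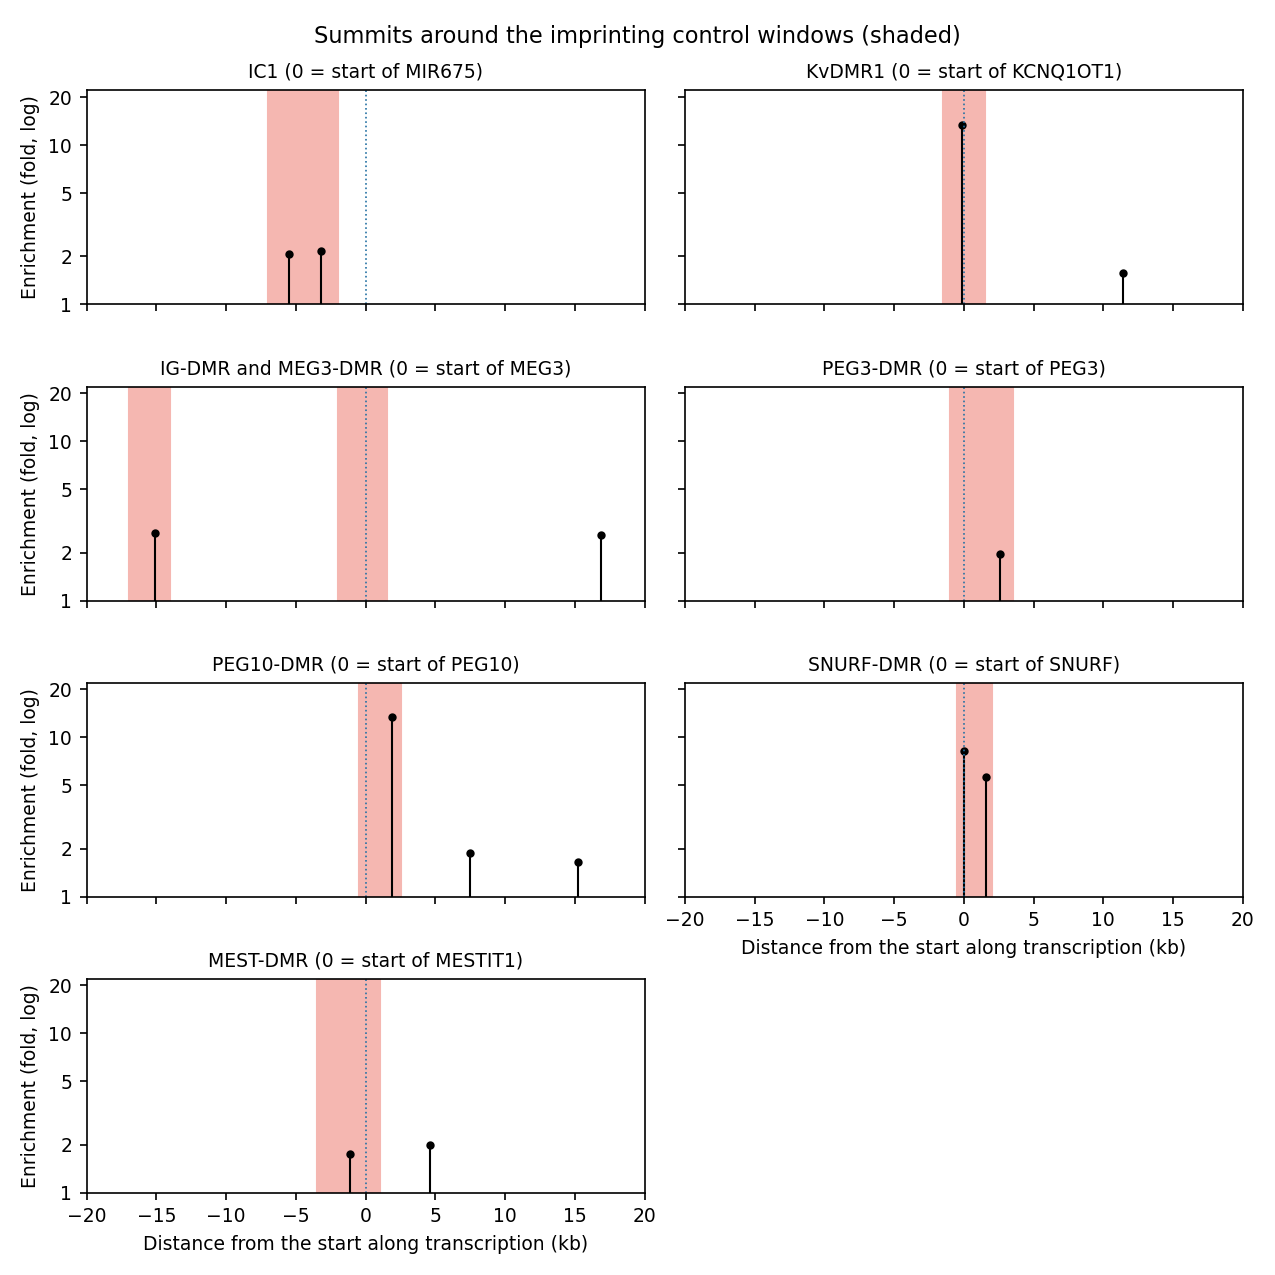
Summits within 20 kb of the start site that anchors each control window. The horizontal axis is distance along transcription in kb, stems give enrichment on a log axis, shading marks the control windows and the dotted line the start site. The PEG10, KvDMR1 and SNURF windows hold summits of 5.62 to 13.4, the IC1, IG-DMR, PEG3 and MEST windows hold summits of 1.76 to 2.67, and the MEG3-DMR holds none.

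H19, a maternally expressed noncoding RNA, spans 1995176 to 2001266 on chromosome 11 on the minus strand. Its RefSeq 5′ end falls inside the IC1 window. IC1 held both H19 summits, 3187 and 5479 bp upstream of MIR675, with enrichments of 2.16 (1.59 to 2.87) and 2.06 (1.51 to 2.76) and pileups of 45 and 43. Their intervals overlapped, and the background at both was the lowest in the list, 20.3 fragments. No summit lay elsewhere in H19 or within 20 kb of it, and the next one was 26339 bp away. The printed H19 sequence, which lies between these summits, held 6 CpG and no match to either motif. It is the sequence at the RefSeq 5′ end only. Whether most H19 transcripts start there or closer to MIR675 was not examined.

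MEG3, a maternally expressed noncoding RNA, spans 100826108 to 100861026 on chromosome 14 on the plus strand. No summit lay at its start or in the MEG3-DMR, and the summit nearest to the start was the 1 in the IG-DMR window, 15091 bp upstream. That summit had an enrichment of 2.67 (2.03 to 3.46) and 56 fragments. The printed MEG3 promoter held 19 CpG, beside 18 in the SNURF window. Overlapping windows of other listed MEG3 starts held 18 and 17 CpG. None of these MEG3 windows had a called site. The lowest pileup called anywhere in the list was 35 fragments. The pileup needed for a call rises with the local background, which is not known at the MEG3 start. Openness too weak to be called was not detectable in this list.

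PEG3, a paternally expressed zinc finger gene, spans 56810082 to 56840726 on chromosome 19 on the minus strand. It had the fewest summits of the 10 genes, a single summit in its control window, 2583 bp into the gene, with an enrichment of 1.97 (1.43 to 2.66) at a pileup of 41. ZIM2 shares this start in RefSeq, so the summit belongs to both genes by position. The next summit lay 64995 bp from PEG3.

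MEST, a paternally expressed gene of the hydrolase fold, spans 130486175 to 130506465 on chromosome 7 on the plus strand. Its control window held a summit with an enrichment of 1.76 (1.26 to 2.42) at a pileup of 37, at 34 bp from the start whose sequence is printed above. That sequence had 25 CpG and the highest number of TGCCGC matches among those printed, 3. The summit at the 5′ end of the gene, 200 bp inside it and outside the window, had an enrichment of 1.99 (1.47 to 2.64) and 46 fragments. The intervals of these 2 MEST summits overlapped.

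Control windows were then compared with the 20 ends of the 10 genes, counting a summit within 1000 bp of an end. The control windows covered 29 kb and held 9 summits, or 3.10 per 10 kb, and the end windows covered 40 kb and held 3 summits, or 0.75 per 10 kb. The KvDMR1 summit was counted in both. The other 2 ends with a summit were the MEST 5′ end and the DLK1 3′ end, where a summit 292 bp past the gene had an enrichment of 2.25 (1.67 to 2.98). The median enrichment was 2.67 at the 9 control summits and 2.25 at the 3 end summits. With only summits of −log10 q 10 or above, the comparison kept 4 summits in 3 control windows, with a median of 10.8, and 1 at an end, the KvDMR1 summit of 13.3, which turned the order of the medians. Both sets share libraries and 1 summit, and no test was made between them. The control windows were placed with earlier results of these data known, and the 20 ends were both 5′ and 3′ ends. All control windows but IC1 and the IG-DMR were themselves set over the start of a gene or noncoding RNA. The IC1 window also holds the H19 5′ end. The densities therefore do not set control regions against gene starts. Without the ends that overlap a control window, an option chosen after the data were seen, 15 ends held 2 summits, or 0.667 per 10 kb.

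Few of these genes had a called site within 1000 bp of their RefSeq start. A summit within 1000 bp of the RefSeq 5′ end was present at 2 of the 10 genes, KCNQ1OT1 and MEST. This was 1 of 7 protein-coding members and 1 of 3 lncRNA members. The shares over all genes, 63.7% of 15843 protein-coding and 31.1% of 11462 lncRNA genes, could be had only for genes in the promoter table. Among the members in that table a start summit was present at 1 of 2 protein-coding genes, MEST and not SNRPN, and at 0 of 2 lncRNA genes, H19 and MEG3, too few to set against those shares. At either end a summit lay at 2 of 7 protein-coding members, DLK1 and MEST, beside 65.7% of such genes, and at 1 of 3 lncRNA members, beside 31.3%. Within the gene or 20 kb a summit was found for 7 of 7 protein-coding members, beside 92.7%, and for 3 of 3 lncRNA members, beside 78.5%. At either end the protein-coding share was below that of all such genes, and the lncRNA share was near it. Counting any start listed for the 4 members in the promoter table, an option added later with the values in view, added SNRPN. For all 10 members a window of 2500 bp raised the number from 2 to 5. The share over all genes was not computed at 2500 bp, so the 5 has no background, and the low count holds for 1000 bp only.

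The strongest accessible site of 6 genes lay outside the gene, in the flank, counting KvDMR1. These were 4 of 7 protein-coding members, beside 69.1% of protein-coding genes with a summit, and 2 of 3 lncRNA members, beside 74.3% of lncRNA genes with one, so a strongest site in the flank was no rarer among genes at large. CDKN1C, a maternally expressed inhibitor of cyclin-dependent kinases, spans 2883218 to 2885775 on chromosome 11 on the minus strand. The only summit in the gene had an enrichment of 1.72 (1.24 to 2.33) and 40 fragments. A summit 6698 bp upstream reached 8.65 (7.84 to 9.52) with a pileup of 418, and another 16438 bp upstream reached 13.6 (12.6 to 14.6) with a pileup of 665. The nearest gene end to both was that of SLC67A1-AS, an antisense RNA, at 5129 bp and 1362 bp, so neither site is particular to CDKN1C by position.

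DLK1, a paternally expressed membrane protein that restrains adipocyte differentiation, spans 100726892 to 100738224 on chromosome 14 on the plus strand. It had 0 summits in the gene and the nearest to its start was 11624 bp away. In the downstream flank, 8986 bp past the 3′ end, a summit had an enrichment of 11.9 (10.8 to 13.2) and 408 fragments, and another 17543 bp past it had 6.47 (5.44 to 7.64) and 137. DLK1 was the nearest gene to both. These sites lie between DLK1 and the IG-DMR window, where the summit was weaker, at 2.67.

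IGF2, a paternally expressed growth factor, spans 2129117 to 2149566 on chromosome 11 on the minus strand and had the most summits of the 10 genes, 7. The 2 summits inside the gene had enrichments of 1.78 and 1.92, with pileups of 37 and 41. The nearest to the 5′ end lay 2549 bp upstream, with an enrichment of 2.02 (1.59 to 2.55). The highest, 7072 bp upstream, had an enrichment of 4.26 (3.65 to 4.94) and 174 fragments, and lay 3141 bp from an end of INS, the insulin gene. The remaining 3 lay between 1.61 and 2.11.

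Beyond the MEG3 3′ end, at 10914 bp, an interval of 1267 bp held a pair of summits, the stronger with an enrichment of 6.13 (5.34 to 7.01) on 213 fragments, toward RTL1, a retrotransposon-derived imprinted gene. Inside MEG3 2 summits had enrichments of 2.58 and 3.05. For MEST, the flank past the 3′ end held 4 summits of an interval of 5218 bp, with enrichments of 3.04 to 4.07, and this interval ran past the 20 kb limit. At that limit the last MEST summit inside, at 19248 bp, had an enrichment of 3.56, and the first outside, at 20093 bp, had 3.25. For PEG10 the last inside, at 18324 bp, had 2.67, and the first outside, at 23784 bp, had 14.4.

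By pileup and by enrichment the members were ordered differently. In enrichment the highest summits of CDKN1C (13.6), PEG10 (13.4) and KCNQ1OT1 (13.3) had overlapping intervals. In pileup the PEG10 summit, with 4452 fragments (4322 to 4585), stood above the 898 of KCNQ1OT1 (840.2 to 958.7), which stood above the 665 of CDKN1C (615.4 to 717.5). DLK1 followed with 408 fragments (369.4 to 449.6). H19 (45) and PEG3 (41) had the lowest values, and their intervals overlapped.

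**Figure D3:**
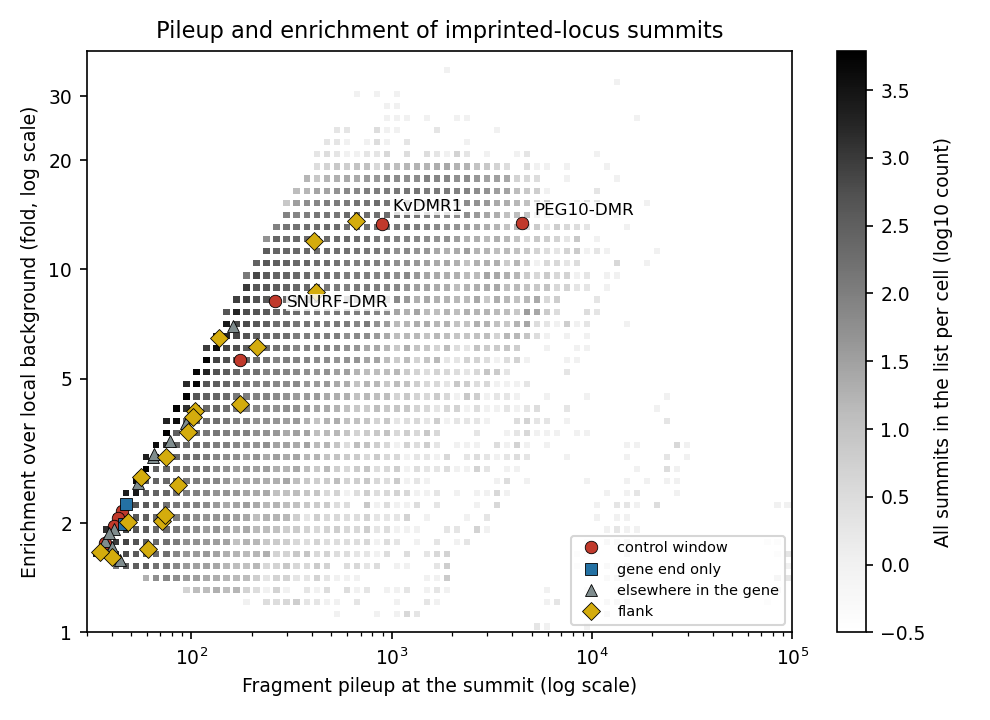
Fragment pileup (log axis) against enrichment (log axis) for the 40 imprinted-locus summits, over a grey map of all 188019 summits. The PEG10 summit has a pileup of 4452 at nearly the same enrichment as KvDMR1, with 898. Most other control-window and gene-body summits sit at the lower left, at pileups of 37 to 65 and enrichments of 1.58 to 3.10.

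The highest enrichment of each gene was set beside that of all genes with a summit in the same window. The median over the 10 members was 7.15, beside 11.8 over 32945 genes (quartiles 7.48 and 14.7). CDKN1C stood above 64.9% of these genes, PEG10 above 63.5% and KCNQ1OT1 above 62.8%. H19 stood above 2.43% and PEG3 above 1.53%. The 10 genes thus ran from the bottom of the range to somewhat above its middle.

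Other genes were described from lists of neighbours in the same clusters and of imprinted genes elsewhere. Whether each neighbour is itself imprinted was not examined. Of 36 neighbours, 33 had a summit in the gene or within 20 kb, with a median highest enrichment of 8.58. They were 27 of 30 protein-coding genes, beside 92.7% of all, and 6 of 6 lncRNA genes, beside 78.5%. With a known strand, a summit at the 5′ end was found for 12 of 22 protein-coding neighbours, beside 63.7%, and for 0 of 4 lncRNA neighbours, beside 31.1%. The 5 highest at a 5′ end were UBE3A (16.9), a ubiquitin ligase of the Angelman region, COPG2 (16.6), a vesicle coat protein, TSSC4 (15.1), NAP1L4 (14.6), a histone chaperone, and CPA4 (14.1), a carboxypeptidase. ZIM3, NDN and NPAP1 had no summit. Within the Prader-Willi region NDN thus had 0 summits, while MKRN3 had 13.1 with a pileup of 700 at its 5′ end and SNURF 8.18 with 260. SGCE, which lies head to head with PEG10, had no summit within 1000 bp of either end. By the 20 kb rule 12 neighbours shared a summit with a member. The PEG10 control summit, with 4452 fragments, also fell to SGCE, the CDKN1C flank summit of 13.6 to SLC67A1, and the KvDMR1 summit to KCNQ1, a potassium channel gene that had 0 summits at its ends. The MEG3 flank summit of 6.13 fell to RTL1 and MEG8, the PEG3 summit to ZIM2 and MIMT1, and the SNURF summits to SNURF and SNHG14. The IGF2 flank summit of 4.26 fell to INS, the MEST flank summit of 4.07 to COPG2, and both weak MEST summits to MESTIT1.

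Of 22 imprinted genes elsewhere, 22 had a summit in the gene or within 20 kb, with a median highest enrichment of 11.7. With a known strand, 14 of 18 protein-coding genes had a summit at the 5′ end, beside 63.7%, and 1 of 2 lncRNA genes, beside 31.1%. The 5 highest at a 5′ end were INPP5F (16.9), GET1 (15.4), RB1 (15.3), the retinoblastoma cell cycle regulator, HERC3 (14.9) and BLCAP (12.5). The counts and values at 5′ ends are for RefSeq genes. Whether the imprinted transcript of a gene starts there was not examined. PLAGL1 and HYMAI, which share a control region, had 2.11 and 4.18 at their 5′ ends. The 5 with a known strand and no summit at the 5′ end were GNAS, GRB10, AIRN, DIRAS3 and FAM50B.

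Genes for regulators of imprints were described the same way. Of 15, all protein-coding, 12 had a summit in the gene or within 20 kb, beside 92.7%, and 7 of 13 with a known strand had a summit at the 5′ end, beside 63.7%. The 5 highest at a 5′ end were CTCF, the insulator protein (16.6, pileup 5052), DNMT1, the maintenance DNA methyltransferase (14.5), ZNF445, a zinc finger protein that protects imprints (13.4), DNMT3A, a de novo DNA methyltransferase (12.2), and SETDB1, a histone H3K9 methyltransferase (11.97). TRIM28, the partner of ZFP57, had 14.97 at a gene end. ZFP57, DPPA3 and NLRP7 had no summit.

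**Figure D4:**
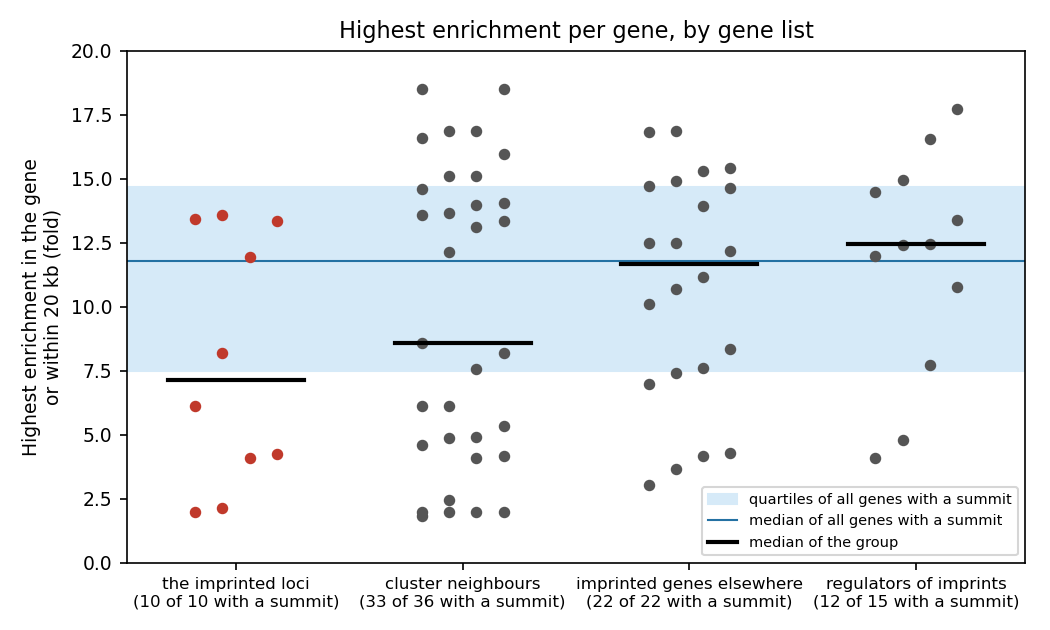
Highest enrichment (fold, linear axis) in each gene or within 20 kb for the 10 imprinted loci and 3 gene lists, points being genes and black bars list medians. The band gives the quartiles of all genes with a summit, 7.48 to 14.7, and the line their median, 11.8. The medians are 7.15 for the imprinted loci, 8.58 for cluster neighbours, 11.7 for imprinted genes elsewhere and 12.4 for regulators.

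Among markers of cell types, a site within 1000 bp of a gene end was found for 5 of 8 mesenchymal markers, beside 65.7% of protein-coding genes. They were FN1 (15.1), COL6A1 (10.05), S100A4 (6.65), VIM (6.64) and TWIST1 (6.27), while COL1A1, COL1A2 and THY1 had none at an end. Such a site was also found for 3 of 4 epithelial markers, KRT8 (12.7), EPCAM (2.11) and KRT18 (1.75), and not for CDH1. It was found for 1 of 3 blood markers, CD3E (14.5), for 0 of 1 hepatic and for 0 of 2 neuronal markers. The mesenchymal share was near that of all protein-coding genes, and epithelial and blood markers also had sites. These counts therefore cannot check the cell line label. RNA was not measured.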

How the data were processed

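The deposited data were 1 narrowPeak list for the series, with 10 columns and no header. The submitters' processing notes name fastp 0.20.0, Bowtie2 2.4.3, SAMtools, deepTools 3.5.0, MACS2 2.2.7.1 and the build hg38, without their order or settings, and how libraries were pooled is not given in the sources used here. In the deposited list the enrichment is a ratio (fold over local background), the p-values and q-values are −log10 values, and the score restates the −log10 q. Intervals were counted from 1.

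The pileup and background were solved from enrichment = (pileup + 1)/(background + 1) and p as a Poisson upper tail, a model tested on the values: 99.96% of pileups were whole within 0.05. The solver was tested on simulated data. Gene coordinates, strands and promoters came from RefSeq GRCh38.p14. The strands of 6 members and the control windows came from general knowledge, because no table used here lists them. The members, windows and lists were chosen with earlier results of these data known. All 10 members are named; of the other lists, genes that share a window or summit with a member, the 5 highest at a 5′ end, and those with no summit. MKRN3, PLAGL1, HYMAI, TRIM28 and the genes elsewhere with no summit at the 5′ end were named after their values were seen. Older symbols were matched through synonyms. The 2 listed genes GNAS-AS1 and RPL39P5 had no entry labelled protein-coding or lncRNA in the RefSeq table and were not analysed here. Marker genes were fixed likewise. Descriptions only were made, with no test, in Python 3.11.15, numpy 2.4.6, pandas 2.3.3, scipy 1.17.1 and matplotlib 3.10.9.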

Additional observations from a re-analysis of the deposited data

How the results depend on the processing

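The number of member summits, 40, became 90 with a flank of 50 kb and 20 with a −log10 q of at least 10. Ends with a summit rose from 3 to 8 with a window of 2500 bp and fell to 1 with a −log10 q of at least 10, where control windows with a summit fell from 7 to 3. The ratio of the control to the end median enrichment, 1.19, became 1.27 with end windows of 2500 bp. In that setting 4 of the 8 end summits were also control summits, beside 1 of 3 in the main setting. The 1.27 thus came from sets that overlapped more, and it is no check on separate sets. Without the ends that overlap a control window, an option picked with the values in view, the ratio was 1.26. It was 0.807 with a −log10 q of at least 10, where the only end summit was also a control summit. The number of members with a summit at the start, 2, became 5 with a window of 2500 bp and 1 with a −log10 q of at least 10. Shares over all genes were not computed for either setting. The median of the highest enrichment per member, 7.15, was 7.66 over the 2 members with a summit at the start, 1.99 in gene bodies alone, and, in another unit and so no measure of stability, 236.5 fragments when the pileup was used. The 13 other alternatives gave counts within 1.5 times the reported one, such as 27 member summits with a flank of 10 kb, or ratios equal to it at 3 digits. For single genes, by the same limits and without the change to pileup, 23 of the alternative values moved and 28 did not. No paired analysis was possible because the list has no column per library. Leaving out single replicates had no input for the same reason. Weak sites cannot be placed above the sampling of fragments beyond the intervals given.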

Other observations

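The imprinted clusters differed in how many accessible intervals they held, with the spans set after the values were known and only intervals of at most 10 kb counted. From MKRN3 to UBE3A, the Prader-Willi and Angelman region of chromosome 15, there were 16 intervals, or 8.53 per Mb, beside 28.4 per Mb over the whole chromosome, whose length was not corrected for assembly gaps. From ZIM2 to USP29, around PEG3, there were 3, or 8.35 per Mb, beside 57.4 on chromosome 19, and none of their summits exceeded an enrichment of 1.97. From H19 to PHLDA2 there were 58, or 61.9 per Mb, beside 32.3 on chromosome 11. From DLK1 to DIO3 there were 28, or 33.4 per Mb, beside 24.8 on chromosome 14. From CPA4 to COPG2, around MEST, there were 21, or 55.6 per Mb, and from SGCE to PPP1R9A, around PEG10, 16, or 22.4 per Mb, beside 34.5 on chromosome 7. No test was made of these densities.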
